A study of Mus musculus with 9 samples.

Results

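The transcriptome described here is that of alveolar macrophages (AMs) of control mice. It comprised the 3 samples of the group Ctrl-AM, of 9 samples and 3 groups in the whole series, and the samples were chosen by their group label alone. The mice were of the strain C57BL/6 at postnatal week 10, carried no engineered allele named in the labels, and served as vehicle controls of an orthotopic lung cancer model. Per the study's methods they were adult females whose left lung received phosphate-buffered saline in place of cancer cells, and each sample came from 1 of 3 mice. Lungs were digested with collagenase and dispase without perfusion, and AMs were sorted as CD45+ autofluorescent Siglec-F+ cells. Every value below is in FPKM, reads scaled to transcript length and to the mapped reads of the library, so levels of different genes can be set side by side per length. Values given in threes are those of Ctrl-AM 1, Ctrl-AM 2 and Ctrl-AM 3 in this order, and ± marks the standard deviation (SD, n = 3). No other group was compared with this one and no test was made, so each statement on a difference between samples is a description of 3 libraries.

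AMs are the resident macrophages of the air spaces. They take up inhaled particles, microbes and spent surfactant, the lipid and protein film that lowers surface tension in the alveoli, and break the cargo down in lysosomes. Their identity depends on the cytokine GM-CSF, made by alveolar epithelium, which maintains the nuclear receptor PPARγ, and on TGF-β. Mouse AMs are known for lysozyme, the chitinase-like protein Ym1, iron storage and lipid droplets, and for surface Siglec-F, which eosinophils carry as well.

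The 5 genes that mark these cells were all expressed in all 3 samples. The sort itself selected for Siglec-F, and members and lists were chosen with earlier results known, so this is no test of the label. Siglecf, the gene of the sialic acid binding lectin used in the sort (chr7:43351341-43359531, plus strand, GRCm38), was at 202, 209 and 193 FPKM, rank 476 of the genes. Pparg, the gene of PPARγ (chr6:115360951-115490399, plus strand), was at 185, 206 and 216 FPKM. Cidec, which encodes a protein of lipid droplets (chr6:113424634-113435760, minus strand), was at 403, 368 and 404 FPKM (392 ± 20.4). Ear1, an eosinophil-associated ribonuclease (chr14:43818765-43875517, minus strand), was the highest of the 5 at 1532, 1745 and 1629.7 FPKM. Marco, a scavenger receptor for particles and bacteria (chr1:120474538-120505024, minus strand), was at 275, 192 and 194 FPKM. Marco was the least even of the 5, with Ctrl-AM 1 above the other two samples. A list of 31 genes known from AMs was drawn up with earlier results of these data known, so its counts are a description only. All 31 were at 1 FPKM or more in every sample, and 25 were at a mean of 100 FPKM or more. Of all 24346 symbols, 9545 and 934 reached these levels. Of the defining eosinophil genes, Epx, Prg2 and Prg3, which encode granule proteins, were at 0 in all 3 samples, Il5ra was at a mean of 0.0589 FPKM and Ccr3 at 0.0177 FPKM.

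The libraries were alike in depth and in the number of genes seen. Low FPKM values fell on steps that give an estimated 12200000, 13900000 and 13900000 mapped reads, when transcript length is shortened by 199 bases, the offset that gave the sharpest steps. Summed FPKM were 657531, 660730 and 635560. The files list 24346 gene symbols, of which 9981, 9997 and 9984 were at 1 FPKM or more, and 9545 were at that level in all 3 samples, 91.3% of those that reached it in any.

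The expressed genes formed a steep ladder of tiers. At a mean of 1000 FPKM or more stood 65 genes, 0.3% of all symbols, and they held 39.9 ± 1.02% of the summed FPKM. Another 869 genes stood at 100 to under 1000 FPKM and held 35.9 ± 0.522%. The 4218 genes at 10 to under 100 FPKM held 20.8 ± 0.454%, and the 4864 genes at 1 to under 10 FPKM held 3.2 ± 0.073%. A mean above 0 and under 1 FPKM was found for 6719 genes, which together held 0.21% of the sum, and 7611 genes were at 0 in all samples. A mean of 100 FPKM or more was thus reached by 934 genes, or by 903 without short RNA genes, some of which were high in 1 sample only. Short RNA genes, such as those of miRNAs and small nucleolar RNAs (snoRNAs), were ranked apart, since FPKM of transcripts as short as a sequenced fragment rises steeply with each read. The other 23038 genes are the measure for counts of class and list members below. Of them 9927 were at a mean of 1 FPKM or more, 5072 at 10 FPKM or more and 903 at 100 FPKM or more. Among the other genes, the highest 1 held 8.19 ± 0.303% of the sum, the highest 10 held 25.4 ± 0.454%, the highest 100 held 43.1 ± 0.159%, and the highest 179 held 50%.

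**Figure D1:**
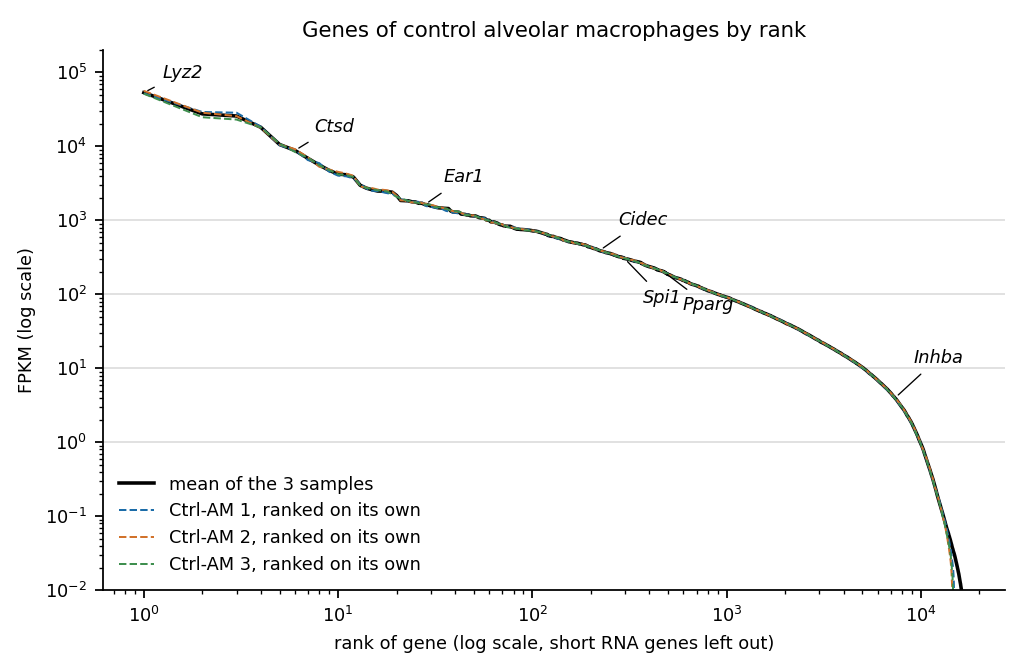
Level of each gene in FPKM (y axis, log scale) against its rank (x axis, log scale), for the mean of the 3 control samples (black line) and for each sample ranked on its own (dashed lines), with 7 genes named. The 4 lines lie on one another from Lyz2 at 53324 FPKM to Inhba at 3.97 FPKM, and fall steeply below 1 FPKM.

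The order of the highest genes was stable over the samples. The first 9 genes had the same rank in each sample, 89 genes were among the 100 highest of every sample, and 108 were among the 100 highest of any. Ranges of neighbours in the order did not overlap for 8 of 9 pairs among the 10 highest genes, and for 14 of 29 pairs among the 30 highest, so many neighbours past the first 10 cannot be put in order with these samples. Over the 30 highest genes the median coefficient of variation (CV, SD over mean) was 4.53%. The most uneven of them was Cd74, whose highest sample was 1.45 times its lowest. Reads of genes with close copies can be split between them. Of the 30 genes, 14 shared no window of 75 bases, the read length, with the transcript of another annotated gene, 9 shared 10% of their windows or more and 3 (Ftl1, Actg1 and Trf) 50% or more.

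**Figure D2:**
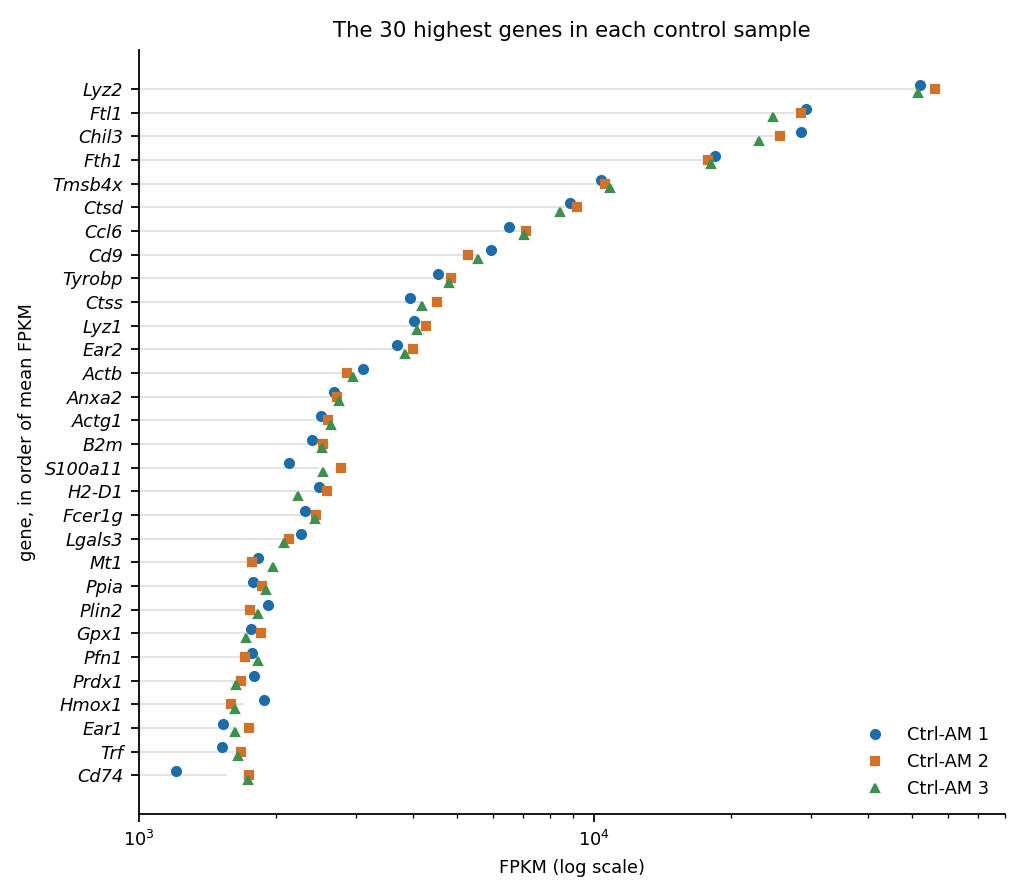
FPKM (x axis, log scale) of the 30 genes of highest mean, short RNA genes left out, with 1 symbol for each control sample. The symbols of most genes nearly coincide, and Cd74 in Ctrl-AM 1, at 1208 FPKM, stands farthest from the other samples of its gene.

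By function, secreted defence proteins were the largest class. Each gene was put in at most 1 of 21 classes, and the share of a class is the sum of its FPKM over the sum of all genes. Secreted defence proteins held 14.9 ± 0.376% of the sum, iron and heme genes 7.67 ± 0.256%, actin and cytoskeleton genes 5.70 ± 0.2%, cytosolic ribosomal proteins 5.39 ± 0.152% and lysosome genes 5.13 ± 0.051%. Nuclear genes of the respiratory chain and ATP synthase held 3.06 ± 0.11%, chaperone and ubiquitin genes 2.40 ± 0.029%, redox and detoxification genes 2.09 ± 0.033% and lipid handling genes 1.77 ± 0.039%. No gene of the mitochondrial genome was among those analysed here. Genes in no class made up 40.2 ± 0.311%. FPKM counts molecules per length, so classes of short transcripts weigh less by reads: ribosomal proteins made up 2.24% of the estimated reads, lysosome genes 6.12% and secreted defence proteins 10.6%. By reads, the lysosome class therefore stood above the ribosomal class, and by FPKM slightly below it.

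**Figure D3:**
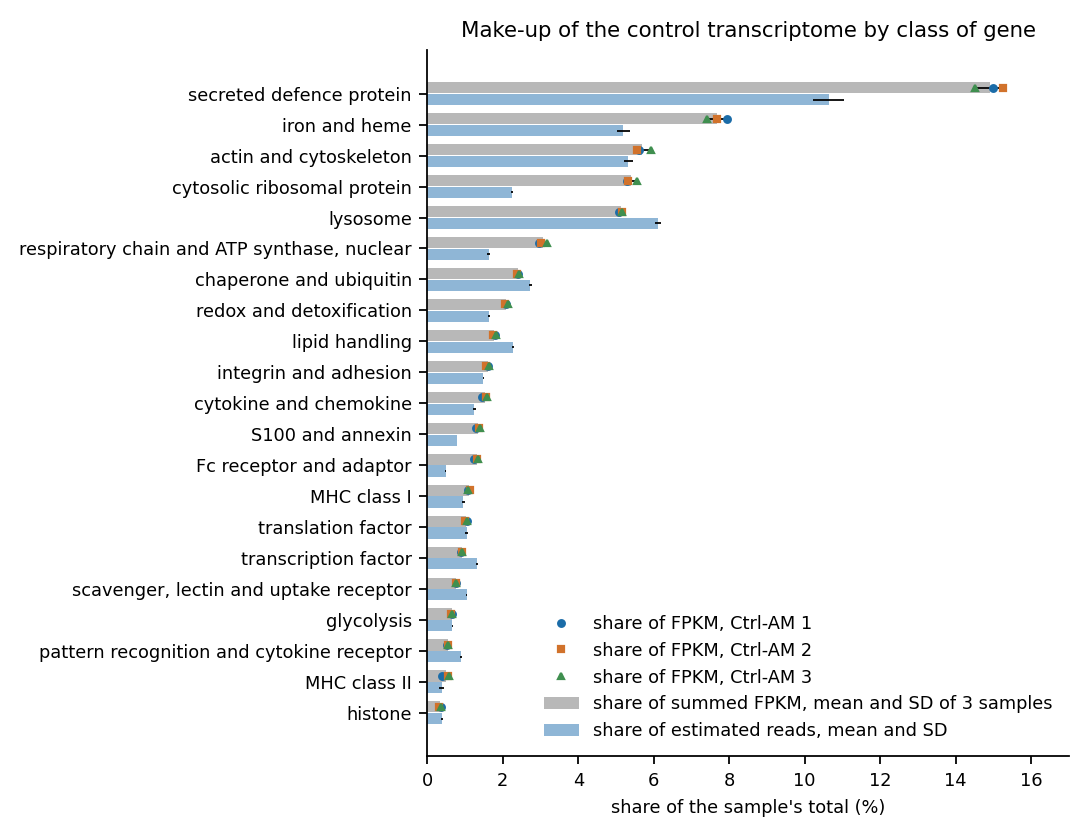
Share of each of 21 classes of genes in the summed FPKM (grey bars, mean of 3 samples with SD, symbols for each sample) and in the estimated reads (blue bars, mean with SD), in percent on the x axis. Secreted defence proteins lead on both scales, at 14.9% and 10.6%, and the 3 samples lie close together in every class.

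The secreted defence class rested on lysozyme and Ym1. Lyz2, the lysozyme of macrophages, which cleaves bacterial cell walls, was at 52184, 56316 and 51474 FPKM and alone made up 54.9% of its class. Chil3, which encodes the chitinase-like lectin Ym1, was at 28521, 25648 and 23048 FPKM. Chil3 was highest in Ctrl-AM 1 and lowest in Ctrl-AM 3, and Lyz2 was highest in Ctrl-AM 2, so Lyz2 and Chil3 did not rise and fall together. Ftl1, given below, had the same order of samples as Chil3. Lyz1, known as the lysozyme of Paneth cells, was at 4023, 4289.7 and 4091 FPKM. Of the 75-base windows of the Lyz1 transcript, 6.2% also occur in Lyz2, and 6% of those of Lyz2 occur in Lyz1. Lgals3, the gene of galectin-3, which binds β-galactosides, was at 2276, 2145 and 2088 FPKM. With the 10 highest genes left out of the sum, which removes Lyz2 and Chil3, the class fell to 3.73%.

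The eosinophil-associated ribonucleases, secreted enzymes of host defence, were led by 3 of their 10 measured members, the only ones at a mean of 100 FPKM or more, and 6 were at 1 FPKM or more in every sample. Ear2 was at 3693, 4009 and 3846 FPKM, Ear1 at 1635 ± 107 FPKM and Ear3 at 665, 695 and 432 FPKM. Ear3 was lowest in Ctrl-AM 3, whereas Ear1 and Ear2 were both lowest in Ctrl-AM 1 and highest in Ctrl-AM 2. Ear6, Rnase2b, Ear7 and Rnase2a were at means of 8.88, 6.63, 5.70 and 1.28 FPKM, Ear10 was under 1 FPKM, and Ear4 and Ear14 were at 0. The genes are close copies: 39.3% of the 75-base windows of Ear1 and 23.4% of those of Ear2 occur in other genes, so their split is uncertain.

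Iron storage ranked beside lysozyme. Ftl1 and Fth1, the light and heavy chains of ferritin, which stores iron in a protein shell, were at 29189.8, 28538 and 24788 FPKM and at 18450.3, 17814 and 18054 FPKM. Fth1 was nearly level over the samples, with a CV of 1.78%, and Ftl1 was lowest in Ctrl-AM 3. Of the windows of Ftl1, 69.9% occur in other annotated genes, 6 in number, none of them a symbol of these files. Hmox1, heme oxygenase, which frees iron from heme, was at 1887, 1592 and 1628 FPKM and highest in Ctrl-AM 1. Trf, the iron carrier transferrin, was at 1525, 1675 and 1649.9 FPKM, although 78.6% of its windows occur in 1 other annotated gene, which is no symbol of these files. Ncoa4, the receptor that takes ferritin to the lysosome, was at 344, 327 and 319 FPKM. Of 27 genes of the class, 18 were at a mean of 1 FPKM or more and 8 at 100 FPKM or more.

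Among lysosome genes, proteases stood highest. Ctsd, the aspartic protease cathepsin D, was at 8878, 9174 and 8421 FPKM, rank 6, and made up 26.4% of the lysosome class. Ctss, a cysteine protease that also trims the invariant chain of MHC class II, was at 3939.9, 4527 and 4189.8 FPKM. Ctsz was at 1206, 1101 and 1138 FPKM and Ctsc at 802, 808 and 890.2 FPKM. These 4 lay above all other cathepsins, and Ctsb, Ctsh, Ctsa, Ctsk and Ctsl followed at means of 497 to 155 FPKM. Of 14 cathepsin genes, 11 were at a mean of 10 FPKM or more, where 5072 of the 23038 genes other than short RNA genes were. Ctsg, a protease of neutrophil granules, was at 0. Laptm5, a lysosomal membrane protein of blood cells, was at 1309, 1356 and 1354 FPKM and Cd68, a macrophage lysosomal glycoprotein, at 1185, 1258 and 1205 FPKM. Of the 101 genes of the class, 92 reached a mean of 1 FPKM and 50 a mean of 100 FPKM.

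Lipid handling was spread over uptake, transport, storage and export. All 31 genes of a list for surfactant and lipid metabolism were at 1 FPKM or more in every sample, and 15 were at a mean of 100 FPKM or more. These levels were reached by 9545 and 934 of all 24346 symbols. Plin2, the coat protein of lipid droplets, was at 1926, 1756 and 1828 FPKM. Fabp1, a fatty acid binding protein best known from liver, was at 1019, 934 and 1084 FPKM, above Fabp5 at 372 ± 7.27 and Fabp4 at 194 ± 45 FPKM. Lpl, lipoprotein lipase, was at 763, 687 and 689 FPKM and Abcg1, which exports cholesterol, at 379, 391 and 368 FPKM. Abca1, the other main cholesterol exporter, was far lower at 8.61, 11.6 and 8.09 FPKM. Lipa and Pla2g15, the acid lipase and the phospholipase of lysosomes, were at 296 ± 14.1 and 209 ± 7.81 FPKM. Apoe, an apolipoprotein, went against this evenness at 107, 184 and 86.4 FPKM, and its neighbour in the genome Apoc1 was at 29.1, 62.5 and 28.7 FPKM. Both were highest in Ctrl-AM 2.

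Several genes better known from epithelium were abundant. Plet1, a surface protein of epithelial progenitors, was at 1232, 1332 and 1298 FPKM, Krt19, a keratin, at 861, 794 and 769.5 FPKM, and Krt79 at 354, 312 and 338 FPKM. Perp, a membrane protein of desmosomes, was at 150.2, 142 and 145 FPKM. Epcam, an adhesion protein of epithelial cells, was at 43.8, 53.9 and 67.8 FPKM and Cdh1, E-cadherin, at 19.1, 22.6 and 22.6 FPKM. Epcam was lowest in Ctrl-AM 1 and highest in Ctrl-AM 3, the same order as the surfactant gene Sftpc given below, and the part of epithelial RNA in its level was not tested. The common epithelial keratins Krt8 and Krt18 were at means of 0.21 and 0.14 FPKM, Dsp at 0.0058 FPKM and Cldn4 at 0. Thus 8 of 13 genes of the list were at 10 FPKM or more and 4 were under 1 FPKM.

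Actin, adhesion and adaptor genes filled much of the rest of the highest 30. Tmsb4x, which binds actin monomers, was at 10359, 10597 and 10845 FPKM, Actb at 3113, 2869.9 and 2961 FPKM and Pfn1, profilin, at 1779, 1711 and 1830.2 FPKM. Cd9, a tetraspanin of the cell surface, was at 5938, 5304 and 5562 FPKM and made up 53.6% of the integrin and adhesion class. Tyrobp and Fcer1g, the adaptors through which many activating receptors of myeloid cells signal, were at 4547, 4868 and 4796 and 2325, 2449 and 2443 FPKM. These adaptors stood well above the receptors that use them: Fcgr3 was at 499, 592 and 513 FPKM, Clec4n (dectin-2) at 777, 768 and 715 FPKM and Trem2 at 49.6, 51.7 and 41.3 FPKM. Anxa2 and S100a11, which bind calcium, were at 2688, 2725 and 2753 and 2135, 2777 and 2543 FPKM. S100a11 was lowest in Ctrl-AM 1 and Anxa2 hardly varied. B2m and H2-D1, of MHC class I, were at 2402, 2543 and 2527 and 2487, 2591 and 2245 FPKM.

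Redox, chaperone, ribosome and energy genes followed. Mt1, a metallothionein, which binds zinc and copper, was at 1826, 1776 and 1969 FPKM, Gpx1, glutathione peroxidase, at 1768, 1860.2 and 1719.9 FPKM and Prdx1, a peroxiredoxin, at 1792, 1679 and 1637 FPKM. Cyba, a subunit of the phagocyte NADPH oxidase, was at 1459, 1537 and 1501 FPKM. Of the 50 genes of the redox class, 44 were at a mean of 1 FPKM or more, and these 4 led it. Ppia, cyclophilin A, was at 1781, 1865 and 1904 FPKM and Hspa8, the constitutive heat shock cognate, at 1594, 1617 and 1399 FPKM. Of 87 ribosomal protein genes, 86 were at a mean of 1 FPKM or more and 74 at 100 FPKM or more, with Rpl41 the highest at 1388, 1518 and 1502 FPKM. Aldoa, of glycolysis, was at 1204, 1165 and 1172 FPKM and Cox6b1, of the respiratory chain, at 866, 848 and 888 FPKM.

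Of the highest genes in no class, the first were Sh3bgrl3 at 1448, 1463 and 1518 FPKM, Fxyd5, a regulator of the sodium pump, at 1341, 1493 and 1498 FPKM, and Itm2b at 1323, 1294 and 1282 FPKM. Ucp2, a carrier of the inner mitochondrial membrane, was at 1249.9, 1314 and 1325 FPKM and Slc25a5, an ADP/ATP carrier, at 1116, 1181 and 1167 FPKM. Gng5, Gm1821, Plaur, Lars2 and Sgk1 completed the first 10 at means of 1146, 1071, 1002, 951 and 868 FPKM. Gm1821 is annotated as a pseudogene and shares 78.8% of its windows with the ubiquitin gene Ubb, and pseudogenes held 0.796 ± 0.0223% of the sum in all. Genes annotated as protein coding held 95.1 ± 1.01%.

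A single chemokine stood far above all other secreted signals. Ccl6, a chemokine of the CC type, was at 6520.4, 7114 and 7008 FPKM, rank 7, and made up 69% of the cytokine and chemokine class. The next chemokine, Cxcl2, which attracts neutrophils, was at 102, 101 and 122 FPKM, and Ccl3 was at 81.1, 66.4 and 78.5 FPKM. Of 20 chemokines listed, 15 were at 1 FPKM or more in every sample, but 2 reached a mean of 100 FPKM. Among all 24346 symbols, 9545 and 934 did. Beside the chemokines, Spp1, osteopontin, was at 775, 772 and 712 FPKM and Il18, a cytokine of the IL-1 family, at 598, 591 and 622 FPKM. Gdf15, a stress-responsive member of the TGF-β family, was at 477, 365 and 369 FPKM and highest in Ctrl-AM 1. Il1rn, the antagonist of the IL-1 receptor, was at 150.4, 147 and 158 FPKM, above Il1a at 109, 114 and 107 and Il1b at 56.1, 90.5 and 65.6 FPKM. Osm, oncostatin M, was at 125, 162 and 165 FPKM and Tnf at 35.7, 35.2 and 38.6 FPKM. Il1b was the least even of these and highest in Ctrl-AM 2. Il6 was at 4.26, 4.22 and 4.63 FPKM, and Il10, Ifng and Ifnb1 were at means of 0.19, 0.024 and 0.042 FPKM.

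The activin and inhibin subunits, dimers of which are ligands of the TGF-β family, were low or at 0. Inhba, which encodes the βA subunit of activin A, was at 3.39, 6.53 and 2 FPKM, an estimated mean of 330.1 reads. Its highest sample, Ctrl-AM 2, was 3.27 times its lowest, Ctrl-AM 3, so its level in these cells was low and uneven. Inhbb, Inha, Inhbc and Inhbe were at 0 in all 3 samples. As a working limit for a gene at 0, the level that 3 reads would have was taken from the library where it is highest. It is 0.0606 FPKM for Inhbb, 0.193 for Inha, 0.148 for Inhbc and 0.048 for Inhbe. These limits cover counting error only, since reads after PCR are not independent molecules.

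Regulators of the cell type spanned a wide range. Cebpb, a factor of macrophage differentiation and response, was the highest transcription factor at 1165, 1077 and 995 FPKM, followed by Fos at 348, 471 and 442 and Atf3 at 299.9, 349.6 and 291 FPKM, and then by Spi1 (PU.1), the master factor of myeloid cells, at 304, 311 and 302 FPKM. Spi1 was the most even of these 4, with a CV of 1.56%. Bhlhe40, a repressor that acts in AM self-renewal, was at 210.2, 215 and 215 FPKM and its relative Bhlhe41 at 17.2, 13 and 14.8 FPKM. The GM-CSF receptor chains Csf2ra and Csf2rb were at 195, 215 and 193 and 111, 118 and 121 FPKM, and the TGF-β receptors Tgfbr2 and Tgfbr1 at 63.6, 70.3 and 61 and 46.3, 43.7 and 44.4 FPKM. All of these regulators and receptors were expressed in every sample. Maf, a factor of several other tissue macrophages, was at a mean of 0.0425 FPKM, and Gata6, the factor of peritoneal macrophages, at 0.0352 FPKM.

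Receptors for microbes were led by C-type lectins, formyl peptide receptor and TLR2. Clec7a, dectin-1, which binds fungal glucans, was at 649, 695 and 676 FPKM, Fpr1 at 597, 607 and 557 FPKM and C5ar1, the receptor of complement fragment C5a, at 397, 354 and 405 FPKM. Tlr2, for bacterial lipopeptides, was at 434, 461 and 471 FPKM, and Tlr4, for lipopolysaccharide, at 28.3, 34.4 and 32 FPKM. Tlr2 thus stood more than 10 times above Tlr4, the next Toll-like receptor. Tlr8, Tlr7 and Tlr13, which sense RNA in endosomes, were at means of 25.7, 19.3 and 14.6 FPKM, and Tlr11 was at 0. Among receptors for dying cells, Axl was at 277, 289 and 279 FPKM and Mertk at 92.5, 102 and 91.5 FPKM, while Tyro3 was at a mean of 0.0064 FPKM. Of 26 scavenger and phagocytic receptors, 20 were at a mean of 10 FPKM or more, and Cd163, Stab1 and Timd4 were under 1 FPKM. A mean of 10 FPKM was reached by 5072 of the 23038 genes other than short RNA genes.

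The spread between the samples was small and fell with the level of the gene. Over the 9927 genes at a mean of 1 FPKM or more, short RNA genes left out, the median SD of log2(FPKM + 1) was 0.109, and Spearman's rho between pairs of samples was 0.988 to 0.989 across genes, which are not independent of one another. The median CV was 13.2% at 1 to under 10 FPKM, 6.64% at 10 to under 100, 4.08% at 100 to under 1000 and 3.98% at 1000 or more. Counting error alone, from the estimated reads of each gene, would give median CVs of 7.98%, 3.63%, 1.62% and 0.631% in the same tiers. The spread was thus above counting error in each tier, and above 100 FPKM it stayed near 4% while counting error fell further. The parts of mice, sorts and library preparation in this spread cannot be told apart here. Among 5072 genes at a mean of 10 FPKM or more, the median gene had a highest sample 1.12 times its lowest, 88 genes (1.74%) had a ratio of 1.5 or more and 16 (0.315%) of 2 or more.

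**Figure D4:**
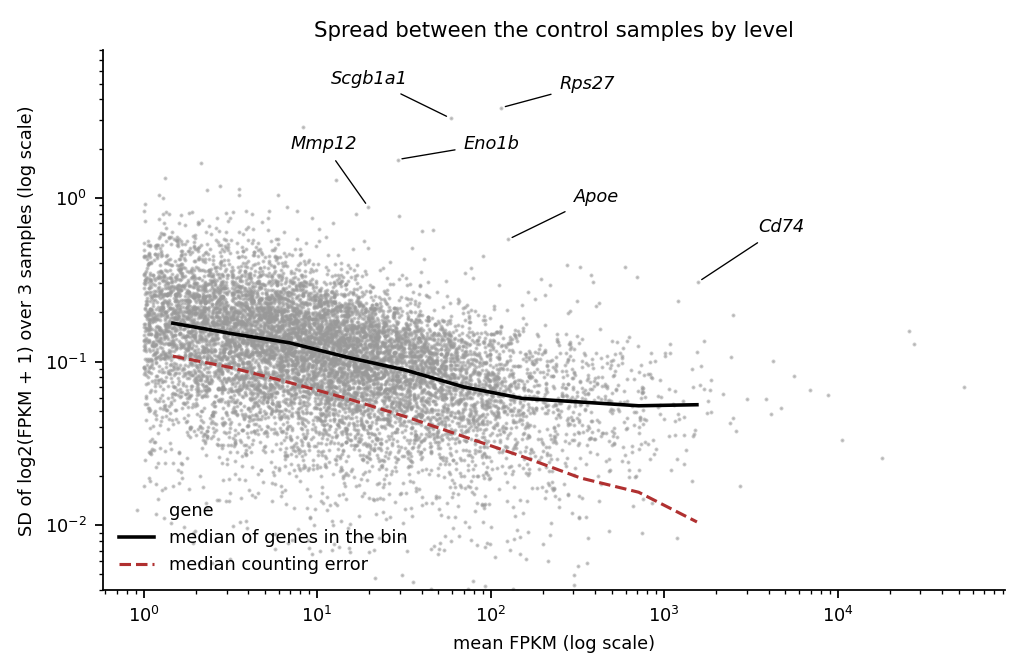
SD of log2(FPKM + 1) over the 3 control samples (y axis, log scale) against mean FPKM (x axis, log scale), 1 point for each gene at a mean of 1 FPKM or more, with the median in bins of level (black line) and the median counting error from estimated reads (red dashed line). The lines lie farthest apart above 100 FPKM, where the black line stays level, and the few most even genes fall below the axis. Rps27 and Scgb1a1 stand highest, at 3.56 and 3.07.

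The 10 most uneven genes at 10 FPKM or more fell into a few kinds. Scgb1a1, a secreted protein of airway club cells, was at 169, 5.22 and 2.2 FPKM, nearly all of it in Ctrl-AM 1, and Sftpc, surfactant protein C of alveolar type 2 cells, at 28.6, 40.6 and 70.1 FPKM. Retnla, a secreted protein of alternatively activated macrophages, was at 9.39, 3.48 and 25.4 FPKM, Mmp12, macrophage elastase, at 11.7, 35.6 and 11.7 FPKM and the chemokine Ccl5 at 6.3, 18.1 and 12.6 FPKM. These genes did not share a sample: Retnla and Sftpc were highest in Ctrl-AM 3, and Mmp12 and Ccl5 in Ctrl-AM 2. Snhg9, a host gene of a snoRNA, was at 9.32, 12.2 and 28.6 FPKM and Sec24b, of vesicle coats, at 5.34, 12.7 and 12.8 FPKM. The other 3, Rps27, Eno1b and Ndufs5, have near-identical copies and are described next. At the other end, the 5 most even genes were Mrps6 at 135, 135 and 135 FPKM, Pip4k2c, Mrpl32, Fau and Sept11, whose highest samples were at most 1.0043 times their lowest. This evenness describes these 3 samples only.

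Rps27 and Rps27rt were 1 message in sequence and 2 symbols in the table. Both symbols encode the ribosomal protein S27. Rps27 lies on chr3:90212522-90213651 (minus strand, GRCm38) with 4 exons in its transcript, and Rps27rt on chr9:114982366-114982739 (minus strand) with 1 exon. Their annotated coding sequences of 255 bases are identical, with 0 differing bases, and the shared sequence is shown because it leaves a read of 75 bases within it no letter to tell the copies apart. Capitals mark the 2 bases on each side of the 3 introns that Rps27 has within it and Rps27rt lacks.
Rps27 and Rps27rt coding sequence: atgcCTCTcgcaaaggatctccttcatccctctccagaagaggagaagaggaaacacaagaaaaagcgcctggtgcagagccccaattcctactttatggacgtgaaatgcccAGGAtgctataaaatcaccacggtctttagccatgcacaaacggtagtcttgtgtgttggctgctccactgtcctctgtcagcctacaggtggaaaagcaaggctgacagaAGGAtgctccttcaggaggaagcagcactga
Rps27 was at 4.56, 336 and 3.08 FPKM and Rps27rt at 1264, 997 and 1361 FPKM. Rps27 was thus high in Ctrl-AM 2 and near 0 in both others, and Rps27rt was lowest in that same sample. Their sum was 1269, 1334 and 1364 FPKM, with a highest sample 1.08 times its lowest. Of the 75-base windows of the Rps27 transcript, 98.5% occur in Rps27rt, and how reads with several places were counted is not stated in the sources used here.

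Several other uneven genes had a partner of opposite pattern, shown here for that reason. Eno1b was at 37.4, 4.41 and 45.3 FPKM and Eno1, enolase of glycolysis, at 254, 304 and 255 FPKM, with a sum of 291, 308 and 300.5 FPKM. Ndufs5, of respiratory complex I, was at 27.9, 15 and 45.9 FPKM and BC002163, with which 24.1% of its windows are shared, at 78.1, 95.2 and 56.6 FPKM, with a sum of 106, 110.2 and 103 FPKM. Atp6v0c, the proteolipid of the proton pump of lysosomes, was at 65.2, 99.96 and 70.4 FPKM and its copy Atp6v0c-ps2, annotated as a pseudogene, at 1069, 918 and 1024 FPKM. In each of these pairs 1 gene was high where the other was low. The highest sample of the sum was 1.06, 1.07 and 1.11 times the lowest, against 10.3, 3.07 and 1.53 times for the lesser gene alone. Of the larger genes, BC002163 alone had a ratio of 1.68 and Atp6v0c-ps2 of 1.16. A sum leans to its larger gene and the pairs were picked for their pattern, so the evenness of the sums is no test of split reads. Sharing did not always come with this pattern: Tmsb15b1 was at 6.59, 15.7 and 11.4 FPKM and Tmsb15l, with which it shares 49.6% of its windows, at 7.07, 10.5 and 9.44 FPKM, both lowest in Ctrl-AM 1 and highest in Ctrl-AM 2, and the highest sample of their sum was 1.92 times its lowest. Rpl26 and Rpl30 were listed at 23 and 39.7 FPKM, whereas most ribosomal protein genes were at 100 FPKM or more, and the copies Gm15772 and Gm12191 were at 480.2 and 464 FPKM. A level of such a gene by itself is therefore uncertain, and so is a low level of a ribosomal protein gene.

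MHC class II genes were the least even of the 21 classes. These genes encode the α and β chains that present peptides to CD4+ T cells, the invariant chain Cd74 that guards their groove and the H2-DM proteins that load them. Their share of the sum was 0.39%, 0.55% and 0.57%. Cd74 was at 1208, 1746 and 1743 FPKM, H2-Ab1 at 525, 773 and 784 FPKM, H2-Aa at 299, 438 and 426 FPKM and H2-Eb1 at 87.4, 123 and 126 FPKM. Ctrl-AM 1 was the lowest sample for each, and the other two were nearly level. The loading genes H2-DMa, at 319.9, 357 and 369.9 FPKM, and H2-DMb1, at 135, 149 and 175 FPKM, were lowest in the same sample by a smaller margin. Ciita, the coactivator of class II genes, was at 0.69, 1.24 and 1.63 FPKM, again lowest in Ctrl-AM 1. Of 12 genes of a list for class II presentation at a mean of 1 FPKM or more, 11 were lowest in Ctrl-AM 1 (91.7%), where 35.0% of the 9927 genes at that level were. The exception was Cd86, a costimulatory ligand, at 21.2, 16.6 and 12.8 FPKM. For some of the 11 the margin was small, as for H2-Oa at 5.23, 5.34 and 5.77 FPKM. Class II genes tend to vary together, so this count is not made of independent observations and describes 3 libraries.

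Class II promoters share an element called the Y box, which binds the factor NF-Y and whose core reads ATTGG. A chosen set of class II genes was looked up in RefSeq promoters of GRCm38.p6. Stretches of 80 bases from 110 to 31 bases before the start site are shown for those of them with the longer core TGATTGG. They are shown because they hold this longer core. Whether it bears on the level of a gene in any sample was not tested. Capitals mark the match.
H2-Aa (chr17:34287854-34287933, minus strand): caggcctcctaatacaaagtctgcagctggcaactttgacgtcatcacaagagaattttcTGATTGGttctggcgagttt
H2-Eb1 (chr17:34305757-34305836, plus strand): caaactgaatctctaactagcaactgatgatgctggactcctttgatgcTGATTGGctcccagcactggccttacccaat
H2-DMb1 (chr17:34153081-34153160, plus strand): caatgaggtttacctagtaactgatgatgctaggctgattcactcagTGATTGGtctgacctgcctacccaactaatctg
H2-DMb2 (chr17:34145139-34145218, plus strand): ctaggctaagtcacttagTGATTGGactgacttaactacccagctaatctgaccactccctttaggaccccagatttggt
The match began 50, 61, 63 and 92 bases before the start site of H2-Aa, H2-Eb1, H2-DMb1 and H2-DMb2. The genes looked up were H2-Aa, H2-Ab1, H2-Eb1, H2-DMb1, H2-DMb2 and H2-DMa, while Cd74, H2-Oa, H2-Ob and H2-Eb2 were not searched. Of the 5 genes matched, 4 held TGATTGG on either strand. Of 32851 promoters of the same length (300 bases), 7.82% did, a share counted by promoter and not by gene. The Y box was known beforehand as an element of class II promoters, so these numbers are no test of enrichment. This count covers the chosen genes only and not all class II genes. The shorter core ATTGG was held by all 5, H2-DMa included, and by 37.4% of all promoters. H2-DMa held no TGATTGG, and H2-Ab1 was not matched. A match is a description of the letters and not a bound site. H2-DMb2, at 15.5, 16.7 and 16.8 FPKM, held the match and varied little. H2-DMa, without it, was also lowest in Ctrl-AM 1.

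**Figure D5:**
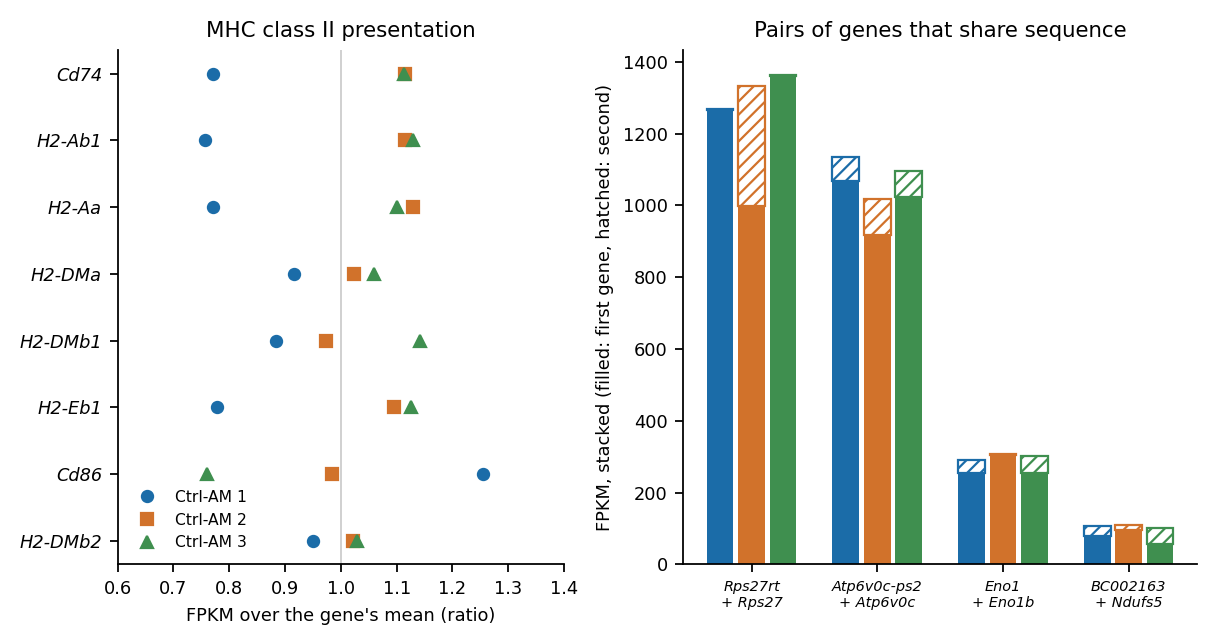
Left, FPKM over the mean of the gene (x axis, ratio) for the 8 MHC class II presentation genes at a mean of 10 FPKM or more, with 1 symbol for each control sample. Right, stacked FPKM (y axis) of 4 pairs of genes that share sequence, with 1 bar for each sample in the order Ctrl-AM 1, 2 and 3. Ctrl-AM 1 is the lowest symbol for 7 genes and the highest for Cd86, and the stacked bars of each pair are of similar height although their parts are not.

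Markers of other cells held little of the summed FPKM. Of 93 genes that mark other lung or blood cells, 7 were at a mean of 10 FPKM or more, 56 were under 1 FPKM and 13 were at 0, and together they held 0.0686%, 0.0487% and 0.0557% of the summed FPKM. Of all symbols, 31.3% were at 0 and another 27.6% were above 0 and under 1 FPKM. The share of these markers under 1 FPKM was thus near that of all symbols, and their share at 0 was lower. The 7 markers at 10 FPKM or more were S100a8 at 71.7, 81.4 and 79.9 FPKM, S100a9, Csf3r, Cav1 at 28.6, 32.3 and 29.4 FPKM, C1qb, Sftpc and Scgb1a1. In Ctrl-AM 1 the club cell gene Scgb1a1 made up much of the sum. The neutrophil granule genes Elane and Camp were at 0, Mpo was at a mean of 0.0102 FPKM and Ngp at 0.649 FPKM. Other neutrophil genes were present: Cxcr2 was at 4.22, 4.23 and 4.13 FPKM and Retnlg at 3.66, 2.32 and 1.78 FPKM. The summed level of the 9 neutrophil genes measured, S100a8, S100a9 and Csf3r included, was 112, 122 and 134 FPKM. The B cell gene Cd79a was at 5.67, 9.12 and 7.08 FPKM, Cd3g of T cells at 2.1, 1.23 and 1.05 FPKM, Nkg7 of NK cells at 4.71, 4.6 and 4.01 FPKM and the dendritic cell gene Ccr7 at 8.2, 9.45 and 7.31 FPKM. Over whole marker lists, the summed level of 5 B cell genes was 12.7, 16.9 and 13.2 FPKM, that of 7 dendritic cell genes 18.1, 15.8 and 15.4 FPKM, and that of 7 genes of interstitial macrophages and monocytes 24.2, 29.5 and 28.3 FPKM. The B cell and the interstitial macrophage and monocyte sums were thus lowest in Ctrl-AM 1, where class II genes were lowest. The dendritic cell sum was highest there through Cd209a, at 7.21, 4.25 and 4.25 FPKM, and each sample was the highest for 1 of the 3 dendritic cell genes at a mean of 1 FPKM or more. The part of these cells in the class II level was not tested. In a bulk library fewer cells of a type and less RNA per cell cannot be told apart.

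Short RNA genes had high and uneven FPKM. Of 1308 such genes 95 were above 0 in any sample and 31 in all 3, and they held 3.99%, 3.75% and 2.13% of the summed FPKM. Mir762 was at 10641, 0 and 0 FPKM, and the snoRNA genes Snord83b and Snord96a were both at 0, 6176 and 0 FPKM. Each thus had a very high value in 1 sample and 0 in both others. The 4 miRNA genes above 0 in every sample with the highest means are shown by the mature sequences annotated in RefSeq (GRCm38.p6), with the seed, bases 2 to 8, in capitals, since a library of polyadenylated RNA measures their precursors or host messages and not these mature forms.
miR-7091-5p (Mir7091, chrX:74274083-74274105, minus strand): gUAGGGGUgauagauuccauggc
miR-7091-3p (Mir7091, chrX:74274027-74274047, minus strand): aGUGGCUUcugucgucucuag
miR-703 (Mir703, chr5:98475616-98475636, minus strand): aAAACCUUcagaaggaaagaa
miR-3074-5p (Mir3074-2, chr8:84208873-84208894, minus strand): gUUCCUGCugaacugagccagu
miR-3074-2-3p (Mir3074-2, chr8:84208839-84208858, minus strand): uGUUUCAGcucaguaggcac
miR-27a-5p (Mir27a, chr8:84208685-84208706, plus strand): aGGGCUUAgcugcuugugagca
miR-27a-3p (Mir27a, chr8:84208727-84208747, plus strand): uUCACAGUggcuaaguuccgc
No seed was shared by any 2 of these 7. Mir7091 was at 1863, 1633 and 3267 FPKM and lies within Dnase1l1 on the same strand, a gene at 81.7, 83.9 and 93.1 FPKM. Mir703 was at 1651, 1447 and 1769 FPKM and Mir3074-2 at 769.8, 1349 and 675 FPKM. Mir27a, on the opposite strand beside Mir3074-2, was at 1237, 723 and 723 FPKM. Leaving all short RNA genes out raised the share of the 100 highest other genes from 43.1% to 44.5%.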

How the data were processed

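RNA of sorted AMs was amplified with SMART-Seq HT from polyadenylated RNA, made into Nextera libraries and read as single ends of 75 bases. Per the labels, the authors aligned reads to mm10 with TopHat2 2.1.1 and Bowtie2 and deposited FPKM per gene symbol from Cuffdiff 2.2.1. The study's methods name Cufflinks for FPKM. The annotation, strand setting and handling of reads with several places are not given in the sources used here. Samples were grouped by their titles. The FPKM of the other 6 samples were not used.

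Values were summarised as deposited with Python 3.11.15, numpy 2.4.6, pandas 2.3.3 and matplotlib 3.10.9. The log scale was log2(FPKM + 1). Expression was called at 1 FPKM. Short RNA genes were those with miRNA, snoRNA and similar symbols, or annotated as such an RNA with a transcript under 300 bases. Other short noncoding genes, such as Snhg9 at 183 bases, were kept with the rest. Symbols were matched to GENCODE vM21 of GRCm38 (98.48%), which gave lengths, positions and 75-base windows shared between transcripts. Estimated reads were FPKM times length less 199 bases times estimated depth, both chosen as those that gave the sharpest steps; with them, 67.1 to 67.7% of low values came out whole within 0.1, which restates this choice. Scripts were tested on simulated data.

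The genes named were the 30 highest, the markers, up to 6 of each class or list and those at 0, the 10 highest in no class, the 10 most uneven and 5 most even genes at 10 FPKM or more, and the activin and inhibin subunits; further genes were chosen after their values were seen. The members and lists were chosen with earlier results of these data known. Alternatives were rescaling to a common sum, leaving out short RNA genes, each sample, or the 10 highest genes, other detection levels, filters and pseudocounts, medians in place of means, and shares of estimated reads.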

Additional observations from a re-analysis of the deposited data

How the results depend on the processing

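Of 54 values recomputed under an alternative over 8 results, 36 moved by less than the spread or limit set for them and 18 moved further. Some of the 36 could not move and say nothing on stability. Rescaling each sample leaves its shares and the order of its genes unchanged. The overlap of the 100 highest genes and the median SD already left out short RNA genes. Rescaled to the common sum of TPM units, 1405 genes instead of 934 were at a mean of 100 or more and the median SD of log2 values was 0.121 instead of 0.109, since the deposited sums were below that of TPM. The median SD was 0.123 with a pseudocount of 0.1, 0.0655 with no filter on low values, 0.0946 at a mean of at least 5 FPKM, and 0.0859 to 0.0910 with 1 of the 3 samples left out. Without short RNA genes the 100 highest genes held 44.5%, ribosomal protein genes 5.57%, lysosome genes 5.31% and secreted defence genes 15.4%. Without the 10 highest genes these 3 classes held 7.22%, 4.19% and 3.73%. As shares of estimated reads, an alternative chosen after seeing the data, they held 2.24%, 6.12% and 10.6%. Each of these moves goes with a change in the genes, units or samples that enter the value. No paired analysis was possible because the results come from no test and the samples form 1 group. The read numbers rest on the length offset chosen for the sharpest steps. The level of 3 reads, the working limit for a gene at 0, was 0.048 to 0.44 FPKM over the 22 listed genes with a length.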

Other observations

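Immediate-early genes are induced within minutes of a stimulus. In every sample 22 of 24 were at 1 FPKM or more, and 5 were at a mean of 100 FPKM or more. Over all 24346 symbols, 9545 and 934 reached these levels. Dusp1, a phosphatase that ends MAP kinase signals, was at 511, 593 and 573 FPKM, Fos, a subunit of the factor AP-1, at 348, 471 and 442 FPKM and Zfp36, which destabilises cytokine messages, at 203, 221 and 233 FPKM. Of 23 such genes at a mean of 1 FPKM or more, 14 were lowest in Ctrl-AM 1 (60.9%, against 35.0% of all genes at that level). Such genes tend to vary together, so the 14 are not independent observations. Of 11 heat shock genes 8 were at a mean of 10 FPKM or more, among them Hsp90aa1, a cytosolic chaperone, at 94.8, 88.5 and 86.2 FPKM and Dnajb1, a co-chaperone of the HSP40 family, at 24.7, 25.6 and 24 FPKM. The inducible HSP70 genes were among the lowest, with Hspa1a at 3.11, 2.78 and 3.42 and Hspa1b at 3.38, 3.26 and 3.79 FPKM, while the constitutive Hspa8 was at 1537 ± 119.8 FPKM.

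Of 22 interferon-stimulated genes 5 were at a mean of 10 FPKM or more and 0 at 100 FPKM or more. They were led by Bst2, which tethers budding virus, at 50.8, 62.4 and 58 FPKM. Of all symbols, 17.3% were at 10 to under 100 FPKM, 3.6% at 100 to under 1000 and 0.3% at 1000 or more. The count of 5 of 22 was thus near the share over all symbols. The antiviral genes Mx1, Rsad2 and Ifit3 were at means of 0.105, 0.291 and 0.427 FPKM. Of the 12 interferon-stimulated genes at a mean of 1 FPKM or more, 9 were lowest in Ctrl-AM 1 (75%, against 35.0% of all genes at that level). These genes also tend to vary together, so the 9 are not independent observations.

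Of 24 cell cycle genes 23 were at 1 FPKM or more in every sample, 12 at a mean of 10 FPKM or more and 2 at 100 FPKM or more. For the first and last of these levels, the counts over all 24346 symbols were 9545 and 934. Stmn1, which destabilises microtubules, was at 119, 129 and 143 FPKM, Pcna, the sliding clamp of DNA replication, at 135, 135 and 142 FPKM and Birc5, survivin, at 16.6, 20.5 and 25.3 FPKM, while the proliferation marker Mki67 was at 1.96, 2.5 and 2.19 FPKM. Of 23 genes of the list at a mean of 1 FPKM or more, 19 were highest in Ctrl-AM 3 (82.6%), where 32.1% of all genes at that level were. Genes of 1 programme tend to vary together between samples, so such a count over its members is not a count of independent observations.

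Circadian clock genes were mostly under 10 FPKM, as were most of all symbols. Arntl was at 7.91, 10.8 and 7.82 FPKM, Nr1d1 at 8.31, 7.62 and 7.95 FPKM and Per2 at 5.89, 7.89 and 5.46 FPKM, and the output gene Dbp was at 0, 0.0485 and 0.486 FPKM. In glycolysis, Aldoa led at 1181 ± 20.8 FPKM, before Gapdh at 947 ± 31.8 and Ldha, lactate dehydrogenase, at 719 ± 18.2 FPKM. Hexokinases, which catalyse the first step of the pathway, were low, with Hk3 at 15.1, 13.1 and 11.9, Hk2 at 3.38, 3.71 and 4.68 and Hk1 at 2.87, 4.08 and 3.34 FPKM, and Vegfa, a target of hypoxia, was at 0.326, 1.26 and 0.439 FPKM.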
